A study of Rattus norvegicus with 25 samples.

Results

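Interferon-stimulated genes are the genes that cells switch on when interferon binds its receptors, and 34 of them were examined in the gingiva of rats with experimental periodontitis. The 34 were chosen by name and not by their values, but with earlier results of these data known. The 45 Ensembl transcripts with these symbols were summed per gene. All 34 were found among the 30547 genes of the table, and all 34 were among the 16092 genes tested, which reached a CPM of 2 in 1 library or more. Gingival RNA was sequenced from 25 wild-type Sprague-Dawley rats, with 5 rats per group and 1 library per rat. In the EP (experimental periodontitis) group a silk ligature was tied around the maxillary first molars on both sides and the silk was smeared with Porphyromonas gingivalis. The Cur/ZNP gel, ZNP gel and Cur gel groups were EP rats that also received weekly injections into the periodontal pocket, for 4 weeks, of a methylcellulose hydrogel with curcumin and zinc oxide nanoparticles, with zinc oxide nanoparticles alone or with curcumin alone, and the combined gel held each drug at a lower concentration than the single gels. The sham rats had hydrogel as their control treatment, and the sources do not say if EP rats were injected with drug-free hydrogel. The rats were 6 weeks old according to the sample labels and 8 weeks old and male according to the methods.

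Cells sense foreign RNA with cytosolic receptors such as RIG-I (Ddx58) and MDA5 (Ifih1), and the signal leads to transcription of type I and type III interferons. Secreted interferons act through JAK kinases and STAT proteins, and a complex with Stat2 and Irf9 binds the interferon-stimulated response element (ISRE) in the promoters of antiviral genes such as the Mx, Oas and Ifit families. Interferon gamma acts mainly through the gamma-activated site (GAS), and among its targets are Irf1, the guanylate-binding proteins and the chemokines Cxcl9, Cxcl10 and Cxcl11.

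Each library held between 50690789 and 81791804 reads, with a median of 62227570, and values are given as normalized counts, which are reads divided by 1 size factor per library. Markers of keratinocytes and fibroblasts were present in every library, with summed normalized counts of 125165 to 1638198 over 7 keratinocyte genes and of 109592 to 508509 over 4 fibroblast genes. Sham 4, EP 3 and EP 4 held summed nasal gland markers of 14973026, 7383124 and 9335953 normalized counts, and the highest of the other 22 libraries had 35419. The size factors of Sham 4, EP 3 and EP 4 were 0.492, 0.71 and 0.683, the lowest of the 25 libraries, so that their reads were scaled up. Sham 1, Sham 3 and Sham 4 held summed autonomic neuron markers (6 genes) of 30651, 70770 and 25298 normalized counts, against 167 in Sham 5 and 293 in Sham 2. Outside the sham group Cur/ZNP gel 2 had 22501 and the other 19 libraries had at most 600.5. Summed salivary gland markers (6 genes) ran from 2381 (Sham 3) to 9095844 (EP 2). They were 28610, 28733 and 2634 in Cur/ZNP gel 1, 4 and 5, against 3749768 and 5123001 in Cur/ZNP gel 2 and 3. Summed skeletal muscle markers (5 genes) ran from 5975 (Cur gel 4) to 1578064 (ZNP gel 5). The part of these tissues in the comparisons of the gel groups was not tested. In bulk tissue fewer cells of a type and less RNA per cell cannot be told apart, and this holds for each result on the members.

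Promoter windows of RefSeq (GRCr8 build, 250 bases before to 50 bases after the start site) were found for 25 of the 34 members. The ISRE core, taken as GAAA, 2 bases of any kind and GAAA again, searched on both strands, occurred in 16 of the 25 windows and in 3.92% of all 33469 windows of the same length (1312 windows). The GAS motif, spelled TTCNNNGAA, which reads the same on both strands, occurred in 6 of the 25 windows (Irf1, Irf9, Oas1a, Ifi44l, Bst2 and Parp14) and in 8.87% of all windows. In Oas1a and Bst2 a pair of ISRE matches overlapped each other, and in Bst2 a GAS match overlapped an ISRE match. No window was found for Ddx58, Isg15, Mx2, Ifit1, Ifit2, Usp18, Dhx58, Zbp1 and Rtp4. No ISRE core as spelled here was in the windows of Trim25, Mx1, Oasl, Irf1, Irf9, Stat2, Herc6, Parp9 and Cmpk2. Shown here are the stretches around the ISRE match of the 7 members that are described library by library in all 5 groups and hold a match, since they show the letters that the windows share. Each is written from 5′ to 3′ in the direction of the gene, and the capitals mark the ISRE match, which appears as TTTC, 2 bases and TTTC when it lies on the other strand.
Ifih1 (chr3:67683993-67684052, minus strand, first base of the match 59 bases before the start site): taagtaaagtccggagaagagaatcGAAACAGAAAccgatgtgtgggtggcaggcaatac
Xaf1 (chr10:57415899-57415958, plus strand, 11 bases before): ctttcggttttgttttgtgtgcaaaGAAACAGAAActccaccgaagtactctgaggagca
Irf7 (chr1:205800058-205800117, minus strand, 69 bases before): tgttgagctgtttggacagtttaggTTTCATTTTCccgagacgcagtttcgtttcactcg
Oas1a (chr12:41330400-41330465, plus strand, 41 bases before): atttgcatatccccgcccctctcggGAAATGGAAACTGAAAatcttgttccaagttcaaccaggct
Ifit3 (chr1:241527257-241527316, plus strand, 44 bases before): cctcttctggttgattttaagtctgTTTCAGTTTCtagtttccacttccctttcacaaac
Rsad2 (chr6:48788233-48788292, minus strand, 147 bases before): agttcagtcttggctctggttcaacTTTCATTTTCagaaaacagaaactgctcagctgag
Gbp2 (chr2:234005671-234005730, plus strand, 31 bases before): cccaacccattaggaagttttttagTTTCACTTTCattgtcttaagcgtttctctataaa
The capitals of Ifih1 and Xaf1 are the same 10 letters, the 2 overlapping matches of Oas1a make its capitals longer, and Irf7, Ifit3, Rsad2 and Gbp2 hold the match on the other strand. A match is a description of the letters and was not tested as a binding site.

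A single ZNP gel rat had the highest value of nearly all members. The library ZNP gel 1 had the highest normalized count of all 25 libraries for 32 of the 34 members, whereas it was the highest library for 2.91% of the 16092 genes tested. The 34 members summed to 164118 normalized counts in ZNP gel 1, and in the other 24 libraries they summed to between 25484 (Sham 2) and 62411 (Cur/ZNP gel 2). For these 32 members the value in ZNP gel 1 was between 1.10 times (Bst2) and 5.93 times (Mx1) that of the second-highest library, with a median of 2.43 times, and it was at least 2 times as high for 19. For 21 members ZNP gel 1 held more of the ZNP gel sum than its 4 group mates together. The exceptions were Ifit1, highest in EP 2, and Ifi27, highest in Sham 4. The rank of Sham 4 for Ifi27 depends on the scaling, since it had 5746 reads (size factor 0.492) against 10000 in ZNP gel 1 (size factor 1.23). The heat map of all members by library shows the column of ZNP gel 1 against the others.

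**Figure D1:**
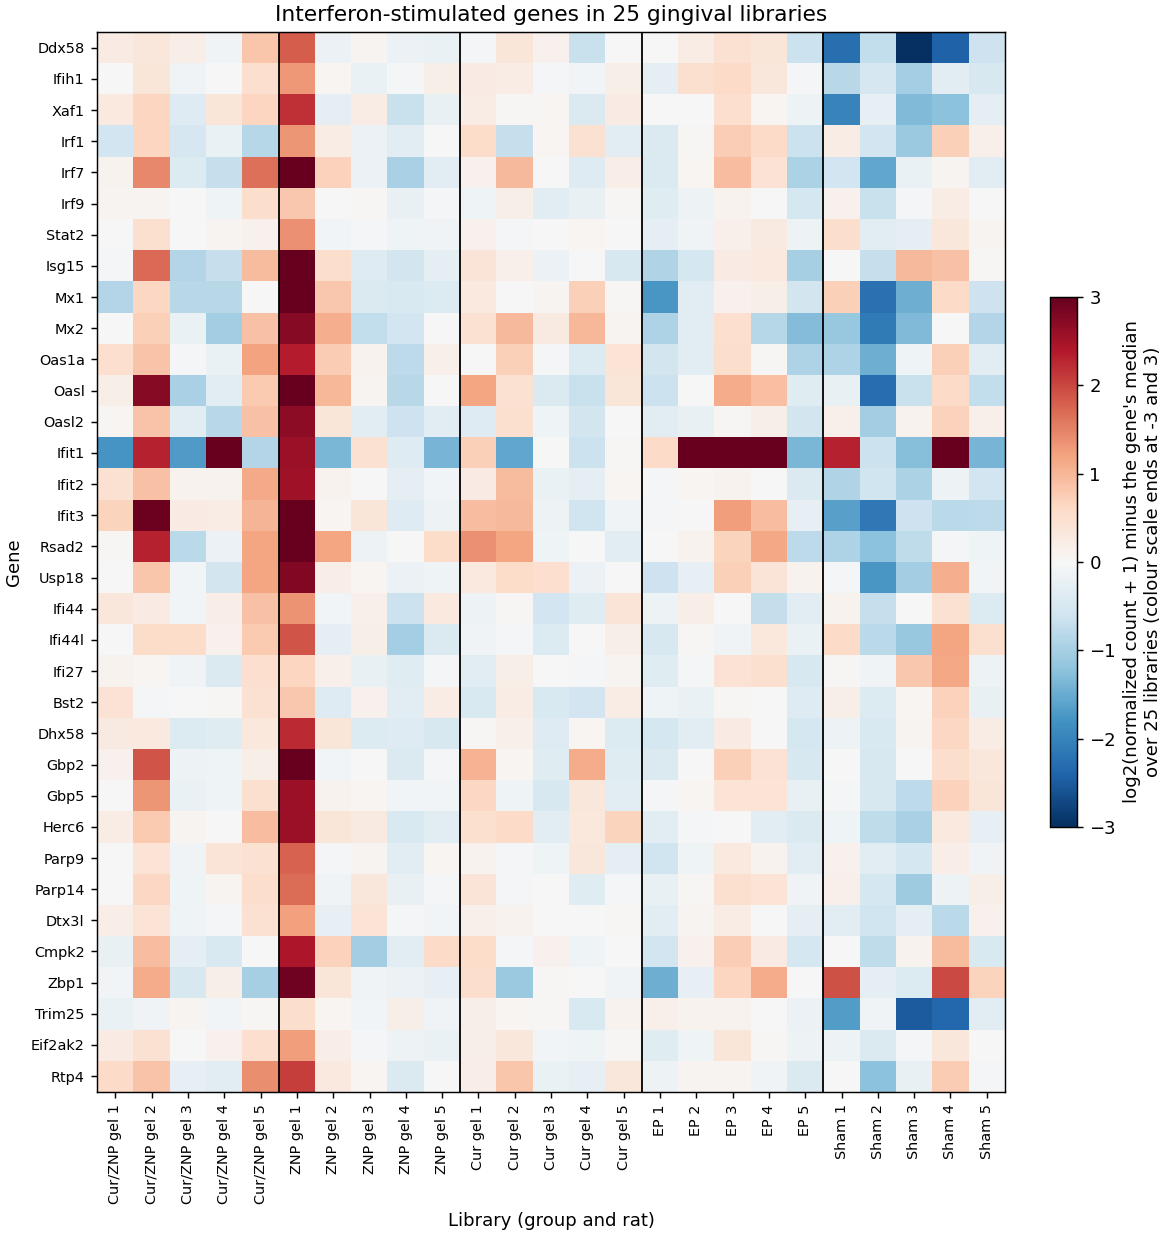
Heat map of the 34 interferon-stimulated genes (vertical axis) in the 25 libraries (horizontal axis, black lines between groups), where colour gives log2(normalized count + 1) minus the median of that gene over all libraries. ZNP gel 1 is the highest library for 32 of the 34 genes, and Ddx58 and Trim25 are low in Sham 1, Sham 3 and Sham 4.

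The members with the largest share of a group in 1 library were Ifit3, Rsad2, Oasl, Isg15 and Gbp2 in ZNP gel and Ifit1 in Cur/ZNP gel. Ifit3, a protein of the IFIT family that binds viral RNA together with its relatives, had 13115, 624, 773, 460 and 541 normalized counts in ZNP gel 1 to 5, so that the first rat held 84.5% of the group sum. In Cur/ZNP gel 1 to 5 Ifit3 had 963, 4599, 712, 700.3 and 1218 normalized counts. Ifit3 was at 1140, 1181, 538, 395 and 556 in Cur gel 1 to 5, at 579, 602, 1447, 1148 and 508 in EP 1 to 5 and at 193, 136, 389, 344 and 349 in Sham 1 to 5. Its 2 highest libraries, ZNP gel 1 and Cur/ZNP gel 2, thus stood in groups whose other rats lay within the range of EP or of Cur gel, and every sham value was under every EP value. Rsad2, which encodes the antiviral enzyme viperin, had 5518, 471, 188, 208 and 308 normalized counts in ZNP gel 1 to 5 and 213, 1031, 118, 183 and 473 in Cur/ZNP gel 1 to 5. Rsad2 was at 539, 473, 192, 206 and 167 in Cur gel, at 212, 223, 329.8, 464 and 121 in EP and at 109, 88.0, 123, 199 and 189.6 in Sham, in the order of the rats. ZNP gel 1 held 82.5% of the ZNP gel sum of Rsad2, and the other 4 rats of the group lay within the range of Cur gel.

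Oasl, an OAS-like protein, had 2340, 259, 137, 72.3 and 128 normalized counts in ZNP gel 1 to 5 and 146, 864.5, 65.7, 102 and 226 in Cur/ZNP gel 1 to 5. In Cur gel 1 to 5 it had 295, 178, 96.6, 81.9 and 166, in EP 1 to 5 it had 82.5, 129.9, 282, 243 and 100.1, and in Sham 1 to 5 it had 112, 25.8, 81.3, 195 and 77.6. As for Ifit3 and Rsad2, its highest and second-highest libraries were ZNP gel 1 and Cur/ZNP gel 2. Isg15, a ubiquitin-like modifier that is conjugated to other proteins, had 3583, 461, 244, 217 and 265 normalized counts in ZNP gel 1 to 5 and 308, 1047, 174, 196 and 616 in Cur/ZNP gel 1 to 5. Isg15 was at 422, 357, 284, 319.7 and 228 in Cur gel, at 171, 223, 380.5, 392 and 160.2 in EP and at 323, 198, 627, 587 and 329 in Sham, in the order of the rats. Its EP and sham ranges overlapped, and EP 1 and EP 5 were under every sham library. Gbp2, a guanylate-binding GTPase, had 20254, 1736, 1845, 1366 and 1811 normalized counts in ZNP gel 1 to 5 and 2020, 6789, 1655, 1700 and 2080 in Cur/ZNP gel 1 to 5. Gbp2 was at 3783, 1914, 1434, 3984 and 1423 in Cur gel, at 1365, 1849, 3016, 2492 and 1331 in EP and at 1830, 1322, 1821, 2669 and 2354 in Sham. Apart from ZNP gel 1, Cur/ZNP gel 2 and the pair Cur gel 1 and Cur gel 4, its libraries lay between 1322 and 3016.

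Mx1, a dynamin-like GTPase with antiviral activity, had 11887, 2004, 838, 830.2 and 856 normalized counts in ZNP gel 1 to 5 and 624, 1764, 639.9, 639 and 1139 in Cur/ZNP gel 1 to 5. Mx1 was at 1400, 1157, 1204, 1868 and 1159 in Cur gel, at 338, 918, 1247, 1290 and 778 in EP and at 1881, 242, 412, 1697 and 745 in Sham. The sham rats of Mx1 thus spanned the whole range of EP and more. Irf7, the transcription factor that amplifies type I interferon transcription, had 9679, 1674, 929, 534 and 835 normalized counts in ZNP gel 1 to 5 and 1117, 2813, 788, 642 and 3255 in Cur/ZNP gel 1 to 5. Irf7 was at 1135, 2044, 1041, 794 and 1190 in Cur gel, at 773, 1092, 1965, 1399 and 541 in EP and at 703, 350.3, 909, 1106 and 837 in Sham. Oas1a, which makes the short oligoadenylates that activate RNase L, had 1639, 537, 345, 184 and 357 normalized counts in ZNP gel 1 to 5 and 452, 574, 309.8, 278 and 737 in Cur/ZNP gel 1 to 5. Oas1a was at 319, 524, 313, 238 and 422 in Cur gel, at 218, 250.4, 461, 328 and 166 in EP and at 169, 115, 294, 522 and 257 in Sham. For both Irf7 and Oas1a the next libraries after ZNP gel 1 were Cur/ZNP gel 5 and Cur/ZNP gel 2.

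**Figure D2:**
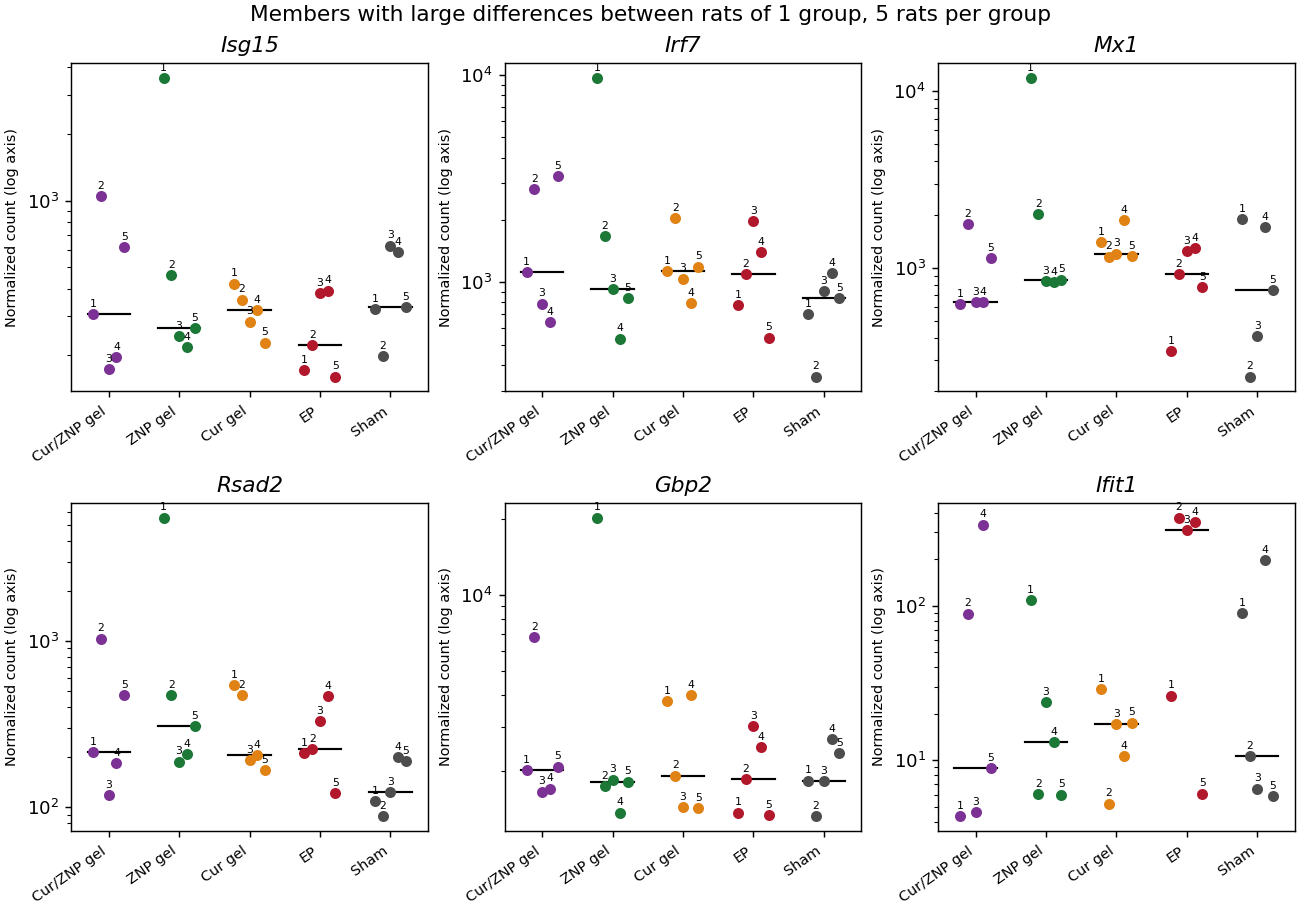
Normalized counts (log axis) of Isg15, Irf7, Mx1, Rsad2, Gbp2 and Ifit1 in the 5 groups, where each point is 1 rat with its number and the line is the group median. ZNP gel 1 is the highest point for 5 of these 6 genes, and Ifit1 is highest in EP 2, EP 4, Cur/ZNP gel 4 and EP 3.

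Ifit1, another IFIT protein, had its own pattern. It had 336 normalized counts in Cur/ZNP gel 4 (75.8% of the group sum), and 4.35, 89.2, 4.62 and 8.93 in Cur/ZNP gel 1, 2, 3 and 5. In ZNP gel 1 to 5 it had 109.5, 6.05, 23.9, 13.1 and 5.99 normalized counts, and in Cur gel 1 to 5 it had 28.9, 5.24, 17.3, 10.7 and 17.6. In EP 1 to 5 it had 26.2, 373, 309, 349.9 and 6.09, against 89.6, 10.7, 6.56, 197 and 5.90 in Sham 1 to 5. High and low rats occurred in EP, Cur/ZNP gel and Sham alike, and the log2 fold change between EP and Sham was 1.90 with a standard error (SE) of 1.30 (limma adjusted p = 0.258). Ifit1 lies in a cluster with Ifit2 and Ifit3 on chromosome 1 (Rnor_6.0 build, chr1:252894663-252946170), and how reads shared with close relatives were counted is not given in the sources used here, which also limits the Oas, Gbp and Mx families.

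After ZNP gel 1, the second-highest library was Cur/ZNP gel 5 for 14 members, Cur/ZNP gel 2 for 7 and Sham 4 for 5 of the 34. Of all genes tested, these libraries were second-highest for 7.58%, 3.87% and 9.19%, in the same order. Cur/ZNP gel 2 was among the 3 highest libraries for 17 members. At the other end, Sham 2 was the lowest of the 25 libraries for 14 members and Sham 3 for 9, and no member of Sham 2 exceeded its median over the 25 libraries, whereas all 34 did so in ZNP gel 1. By group medians, Cur/ZNP gel was the highest group for 17 members and Sham the lowest for 13, and EP was the lowest for 10. The share of all genes was not counted for the 3 highest libraries, the lowest library or the group medians.

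Interferon transcripts themselves were close to the limit of detection in every library. Ifnb1, the gene of interferon beta, had 12 reads in all, and all were in ZNP gel 1. Ifng, the gene of interferon gamma made by T and natural killer cells, had 103 reads in 9 libraries, of which 49 were in ZNP gel 1. Chosen after their values were seen, the type III interferon genes Ifnl1 and Ifnl3 had 14 and 8 reads, all in ZNP gel 1. Ifna1, Ifna2 and Ifna5 had 0 reads in all libraries, which allows up to 3 reads in each by counting error alone. Ifna4, Ifnk and Ifne had 7, 24 and 61 reads in all, with the highest library another one than ZNP gel 1. Cxcl10, a chemokine that draws activated T cells and that was also chosen after its values were seen, had 3738 normalized counts in ZNP gel 1, against 730.2 in Cur/ZNP gel 2 as the second-highest library. Of 51 tested genes of the interferon pathway that are not members, 25 were highest in ZNP gel 1.

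Markers of immune cells were also high in ZNP gel 1. Its summed macrophage markers (6 genes) were 17515 normalized counts and its summed neutrophil markers (5 genes) 9285, both the highest of the 25 libraries. Its T and natural killer cell markers (9 genes) summed to 5955, which was rank 3, and its B and plasma cell markers (6 genes) to 32646 and dendritic cell markers (6 genes) to 8121, which were both rank 6. Cur/ZNP gel 2 was rank 2 for macrophage markers (14413) and for neutrophil markers (7172), whereas Cur/ZNP gel 5 was rank 9 (11353) and rank 23 (1002). The part of these cells in the values of the members was not tested.

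To ask which members differed between periodontitis and healthy gingiva, EP was compared with Sham. Ddx58 (RIG-I), Ifih1 (MDA5), Trim25 and Xaf1 rose in EP and no member fell, so that 4 of 34 members (11.8%) were called higher and 0 lower, beside 18.8% of all genes tested that were called higher and 18.8% that were called lower. The median log2 fold change was 0.155 over the 34 members and 0.013 over all genes tested, 22 members had a fold change above 0, and the members ranged from -0.76 (Zbp1) to 2.02 (Ddx58). This median rests on single rats, since it was -0.001 without EP 3 and -0.012 without Sham 2 (17 of 34 members above 0 in both), 0.015 without Sham 3, 0.068 without EP 4 and 0.33 without Sham 4. Calls are from limma with Benjamini-Hochberg adjusted p under 0.05 over all 16092 genes. Without Sham 4, EP 3 and EP 4, the libraries rich in nasal gland transcripts, 3 members were called higher, beside 13.4% of all genes, and Xaf1 was not. Markers of other tissues also moved between these groups. All 5 tested skeletal muscle markers rose, with sums of 205113 to 966294 normalized counts in EP and 13156 to 222248 in Sham, and all 5 proliferation markers fell, with sums of 3671 to 6785 in EP and 11326 to 20131 in Sham. Of the macrophage markers 2 of 6 rose (sums of 6906 to 12597 in EP and 3762 to 11495 in Sham). Of the dendritic cell markers 2 of 5 tested fell (4203 to 7627 in EP and 6897 to 16078 in Sham). One of these 2 was Irf8, which held 14388 of the 16078 normalized counts in Sham 1. Irf8 is also expressed by other cells and is reported again below with the pathway genes, so these sums mostly follow 1 gene in Sham. Of the autonomic neuron markers 4 of 5 tested fell (8.46 to 75.0 in EP and 167 to 70770 in Sham). Their part in the calls of the members was not tested.

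Ddx58 (chr5:56500734-56536772 of Rnor_6.0, minus strand), whose product senses RNA ends with a triphosphate, had 362, 413, 492, 457 and 227 normalized counts in EP 1 to 5, against 73.8, 213, 27.5, 65.0 and 231 in Sham 1 to 5. Sham 1, Sham 3 and Sham 4 were the low libraries, and the groups overlapped only in that Sham 5 stood slightly above EP 5. The mean was 390.2 ± 103 in EP and 122 ± 93.1 in Sham (SD, n = 5 each), with a log2 fold change of 2.02 (SE 0.46, limma adjusted p = 0.00208). In the gel groups Ddx58 had 420.1, 449.8, 407, 333 and 639 normalized counts in Cur/ZNP gel 1 to 5, 1267, 315, 376, 316 and 312 in ZNP gel 1 to 5 and 348, 462, 392, 225 and 357 in Cur gel 1 to 5.

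Trim25 (chr10:76343847-76362145, plus strand), an E3 ligase that acts with RIG-I, had 1745, 1681, 1693, 1572 and 1399 normalized counts in EP 1 to 5, against 495, 1473, 279, 307 and 1257 in Sham 1 to 5. Sham 2 lay within the EP range and Sham 5 below it, and Sham 1, Sham 3 and Sham 4 lay far below. The mean was 1618 ± 137 in EP and 762 ± 562 in Sham (SD, n = 5 each), with a log2 fold change of 1.42 (SE 0.32, limma adjusted p = 0.0021). The call was lost in a limma fit of the 2 groups alone (adjusted p = 0.0506). Trim25 was at 1365, 1459, 1675, 1486 and 1621 in Cur/ZNP gel, at 2270, 1632, 1481, 1774 and 1459 in ZNP gel and at 1783, 1639, 1603, 1151 and 1681 in Cur gel, in the order of the rats. The 3 sham libraries that were low for Ddx58 and Trim25 are those with autonomic neuron markers of 25298 or more. Cur/ZNP gel 2, with 22501, had 449.8 normalized counts of Ddx58 and 1459 of Trim25, but it is 1 rat of another group. The relation of these markers to both genes was not tested. Without these 3 sham libraries, an alternative chosen after the values were seen that leaves 2 sham rats, none of the 34 members was called between EP and Sham by limma (1 at an unadjusted p under 0.05), while 2.34% of all genes tested were still called higher and 4.00% lower. In that fit the log2 fold change was 0.762 for Ddx58 (adjusted p = 0.276) and 0.245 for Trim25 (adjusted p = 0.367).

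Ifih1 (chr3:48557696-48604097, minus strand), whose product senses long double-stranded RNA, had 600.0, 1034, 1094, 927 and 709.5 normalized counts in EP 1 to 5, against 410.2, 517, 365, 592 and 523 in Sham 1 to 5. Every EP rat was above every sham rat, as was so for 3 members in all (Ifih1, Xaf1 and Ifit3) and for 8.07% of all genes tested. The mean was 873 ± 211 in EP and 481 ± 91.9 in Sham (SD, n = 5 each), with a log2 fold change of 0.84 (SE 0.23, limma adjusted p = 0.00675). Ifih1 was at 735, 942, 678, 736 and 1037 in Cur/ZNP gel 1 to 5, at 1823, 761, 638, 716 and 836 in ZNP gel 1 to 5 and at 871, 863, 712, 696 and 831 in Cur gel 1 to 5, so that every gel rat too was above every sham rat. Without Sham 1, Sham 3 and Sham 4 the log2 fold change between EP and Sham was 0.711 (adjusted p = 0.148).

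Xaf1 (chr10:58860940-58873674, plus strand), a factor that antagonizes the apoptosis inhibitor XIAP, had 215, 213, 304, 223 and 194 normalized counts in EP 1 to 5, against 52.7, 181, 85.2, 91.5 and 176 in Sham 1 to 5. The ranges did not overlap, but Sham 2 and Sham 5 came close to the EP rats. The mean was 229.8 ± 43.0 in EP and 117 ± 57.9 in Sham (SD, n = 5 each), with a log2 fold change of 1.10 (SE 0.40, limma adjusted p = 0.0371). The call was lost when any of EP 1 to 4 or any of Sham 1, Sham 3 and Sham 4 was left out, with adjusted p-values of 0.0178 to 0.121 over the 10 fits that each left out 1 library. It was also lost with edgeR (adjusted p = 0.087), with DESeq2 (adjusted p = 0.0614), and in limma without a filter on low counts (adjusted p = 0.0516) or with the 2 groups alone (adjusted p = 0.0562). Xaf1 was at 264, 335, 165, 278 and 337 in Cur/ZNP gel, at 979, 177, 251, 135 and 183 in ZNP gel and at 251, 219, 223, 159 and 256 in Cur gel, in the order of the rats.

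**Figure D3:**
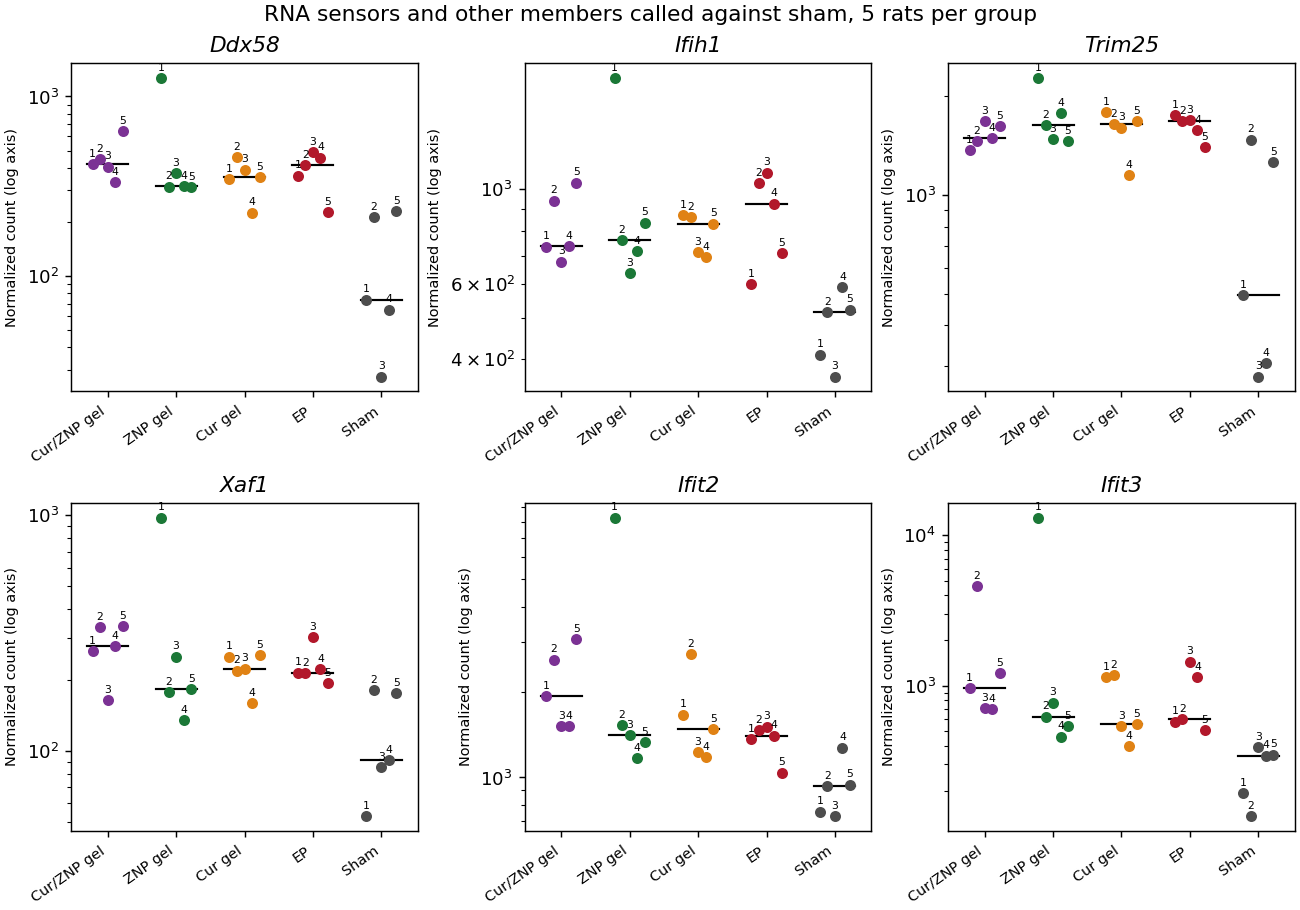
Normalized counts (log axis) of Ddx58, Ifih1, Trim25, Xaf1, Ifit2 and Ifit3 in the 5 groups, where each point is 1 rat with its number and the line is the group median. For Ddx58 and Trim25 the sham rats 1, 3 and 4 lie far under the sham rats 2 and 5, and for Ifih1 and Ifit3 all sham rats lie under all EP rats.

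Of the other sensors, Dhx58 (LGP2), which modulates the signal of RIG-I and MDA5, had a log2 fold change of -0.29 (SE 0.37, adjusted p = 0.566) between EP and Sham, and Zbp1, a sensor of left-handed nucleic acids, had -0.76 (SE 0.61, adjusted p = 0.341). Zbp1 had 71.8, 169, 312, 432 and 199 normalized counts in EP 1 to 5, against 749.8, 163, 149.5, 795 and 315 in Sham 1 to 5, so that Sham 1 and Sham 4 were the highest libraries after ZNP gel 1. Eif2ak2 (PKR), the kinase that halts translation upon binding double-stranded RNA, had 1930 ± 387 normalized counts in EP and 1915 ± 382 in Sham (SD, n = 5 each), with a log2 fold change of 0.01 (SE 0.21, adjusted p = 0.970). Among the transcription factors, Irf9 and Stat2, which are parts of the ISRE-binding complex, had log2 fold changes of -0.11 (SE 0.19) and -0.10 (SE 0.22), and Irf1 and Irf7 had 0.17 (SE 0.38) and 0.52 (SE 0.60). None of these 4 was called (limma adjusted p of 0.517 to 0.745).

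The antiviral effectors were not called between EP and Sham either when all 5 groups were fitted jointly. Ifit3 had the largest fold change of them beside Ifit1, with a mean of 857 ± 418 in EP and 282 ± 111 in Sham (SD, n = 5 each) and a log2 fold change of 1.58 (SE 0.70, limma adjusted p = 0.079). In the limma fit of the 2 groups alone, which lost Trim25 and Xaf1, Ifit3 was called (adjusted p = 0.0264), as was Ifit2 (adjusted p = 0.049). Ifit2 had 0.57 (SE 0.38), Rsad2 0.85 (SE 0.71), Oasl 0.86 (SE 0.77), Mx2 0.50 (SE 0.53), Mx1 0.14 (SE 0.63), Oas1a 0.17 (SE 0.46) and Oasl2 -0.19 (SE 0.47) as log2 fold changes. Isg15 had -0.62 (SE 0.61, adjusted p = 0.441), Usp18, the protease that removes ISG15 from proteins, had 0.43 (SE 0.51), and Herc6, an ISG15 ligase in mice, had 0.14 (SE 0.40). Bst2 (tetherin), which holds budding virus at the cell surface, had -0.19 (SE 0.22), and Cmpk2, a mitochondrial nucleotide kinase whose gene lies next to Rsad2, had 0.04 (SE 0.46). Gbp2 and Gbp5 had -0.03 (SE 0.56) and 0.17 (SE 0.42). The ADP-ribosylation factors Parp9, its partner Dtx3l and Parp14 had -0.02 (SE 0.28), 0.33 (SE 0.22) and 0.41 (SE 0.29), and Rtp4, Ifi44, Ifi44l and Ifi27 had 0.04 (SE 0.41), -0.09 (SE 0.29), -0.15 (SE 0.43) and -0.35 (SE 0.25). Apart from Ifit3 and Ifit1, their limma adjusted p-values lay between 0.240 (Dtx3l) and 0.975 (Gbp2). A missed threshold at 5 rats per group does not show that EP and Sham had the same level.

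The same sham libraries served as the reference of the gel groups, so the following comparisons are not independent of EP against Sham. In ZNP gel against Sham 9 of 34 members (26.5%) were called higher and 0 lower, beside 16.7% of all genes called higher and 15.4% called lower, and the median log2 fold change was 0.56 over the members and -0.008 over all genes. Without ZNP gel 1 the members' median was 0.102, with 24 of 34 above 0. In Cur/ZNP gel against Sham 7 members (20.6%) were called higher and 0 lower, beside 20.2% and 19.5% of all genes, with medians of 0.388 and -0.06. In Cur gel against Sham 5 members (14.7%) were called higher and 0 lower, beside 18.9% and 19.1% of all genes, with medians of 0.246 and -0.033. The members' median was 0.14 without Cur gel 1 and 0.075 without Sham 2. Ddx58, Ifih1, Trim25 and Xaf1 were called higher in all 3. The call of Xaf1 in Cur gel (limma adjusted p = 0.0463) was lost in 16 of 21 alternatives, among them edgeR, DESeq2 and 7 of 10 fits without a single rat (adjusted p between 0.022 and 0.144). In ZNP gel it was lost without ZNP gel 1, without Sham 1 and without Sham 3 (adjusted p of 0.0097 to 0.0732 over the 10 fits). Mx2 was called in ZNP gel and Cur gel, Ifit2, Ifit3 and Dtx3l in ZNP gel and Cur/ZNP gel, and Rsad2 in ZNP gel, although limma called 0 members between any 2 gels. When ZNP gel 1 was left out, 3 members in place of 9 (Ddx58, Ifih1 and Trim25) were called between ZNP gel and Sham, beside 14.2% of all genes called higher. Without Sham 1, Sham 3 and Sham 4, limma called 0 members in each of these 3 comparisons. Of all genes, 0.795% were called higher and 1.28% lower for ZNP gel in that fit. The shares were 3.36% and 4.54% for Cur/ZNP gel and 2.55% and 4.48% for Cur gel. Calls over all genes thus fell as well.

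Mx2, the second Mx GTPase, had 1581, 2237, 1380, 2293 and 1215 normalized counts in Cur gel 1 to 5, against 522, 261, 459, 1157 and 625 in Sham 1 to 5. All Cur gel rats were above all sham rats, as was so for 8.84% of all genes tested. The log2 fold change was 1.64 (SE 0.53, limma adjusted p = 0.0195). Mx2 had 7657, 2447, 689.5, 775 and 1147 in ZNP gel 1 to 5, with a log2 fold change against Sham of 1.60 (SE 0.53, adjusted p = 0.0269), and this call was lost without ZNP gel 1, without ZNP gel 2 and without any one of Sham 1, Sham 2 and Sham 3 (adjusted p of 0.0131 to 0.0906 over the 10 fits). Ifit2 had 1941, 2607, 1520, 1522 and 3086 in Cur/ZNP gel 1 to 5 and 8267, 1527, 1414, 1173 and 1332 in ZNP gel 1 to 5, against 757, 929.9, 730.3, 1274 and 943 in Sham 1 to 5. Every Cur/ZNP gel rat was above every sham rat, as was so for 9.49% of all genes tested, with a log2 fold change of 1.17 (SE 0.38, limma adjusted p = 0.0185), which was 0.0554 in the fit without Cur/ZNP gel 5. Ifit3 had a log2 fold change of 2.22 (SE 0.70, limma adjusted p = 0.0158) in Cur/ZNP gel against Sham, which was 0.0518 in the fit without Cur/ZNP gel 2. Dtx3l, an E3 ligase, had 1292, 1481, 1017, 1093 and 1534 in Cur/ZNP gel 1 to 5, against 883, 740.5, 931, 636 and 1217 in Sham 1 to 5. Its groups overlapped, and its log2 fold change of 0.56 (SE 0.22, limma adjusted p = 0.0449) lost the call in 7 of the 10 fits that left out 1 library, with adjusted p-values of 0.0175 to 0.119.

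To ask whether a gel changed the members in periodontitis, each gel group was compared with EP. Limma called 0 of 34 members in ZNP gel against EP (0 at an unadjusted p under 0.05, beside 0% of all genes called higher and 0.00621% called lower), 0 in Cur/ZNP gel against EP (0 unadjusted, 0% of all genes), and likewise 0 for the Cur gel rats (1 unadjusted, 0% of all genes). EdgeR and DESeq2 on the whole reads called 0 members in each as well, and both gave 14 members at an unadjusted p under 0.05 in ZNP gel against EP. Of all genes, edgeR called 0 in each, and DESeq2 called 0.0249% higher and 0.367% lower for the ZNP gel rats, 0.522% and 0.752% for the Cur/ZNP gel rats and 0.0684% and 0.441% for the Cur gel rats. For the 14 members at an unadjusted p under 0.05, the share of all genes at that threshold was not counted. Neither count model was fitted without ZNP gel 1. The 1 member past the unadjusted threshold in Cur gel against EP was Mx2, with 600.0, 919, 1618, 632 and 462 normalized counts in EP 1 to 5 and a log2 fold change of 1.14 (SE 0.53, limma adjusted p = 1). Its Cur gel values of 1215 to 2293 overlapped those of EP through EP 3 alone.

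In ZNP gel against EP 33 of 34 members had a log2 fold change above 0, with a median of 0.456 beside 0.006 over all genes, and the exception was Ifit1 with -2.40 (SE 1.30). Without ZNP gel 1 the count above 0 was 13 of 34 and the median was -0.044. The largest was that of Mx2 with 1.09 (SE 0.53), followed by Mx1 with 1.04 (SE 0.63) and Rsad2 with 1.03 (SE 0.71). In Cur/ZNP gel against EP 28 of 34 members were above 0 with a median of 0.275, and without Cur/ZNP gel 2 the count was 22 and the median 0.154. In Cur gel against EP 21 members were above 0 with a median of 0.08, which lay between -0.022 (without EP 5, 16 above 0) and 0.172 (without EP 3, 27 above 0) when single rats were left out. Without Sham 4, EP 3 and EP 4 it was 0.303 with 31 above 0.

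**Figure D4:**
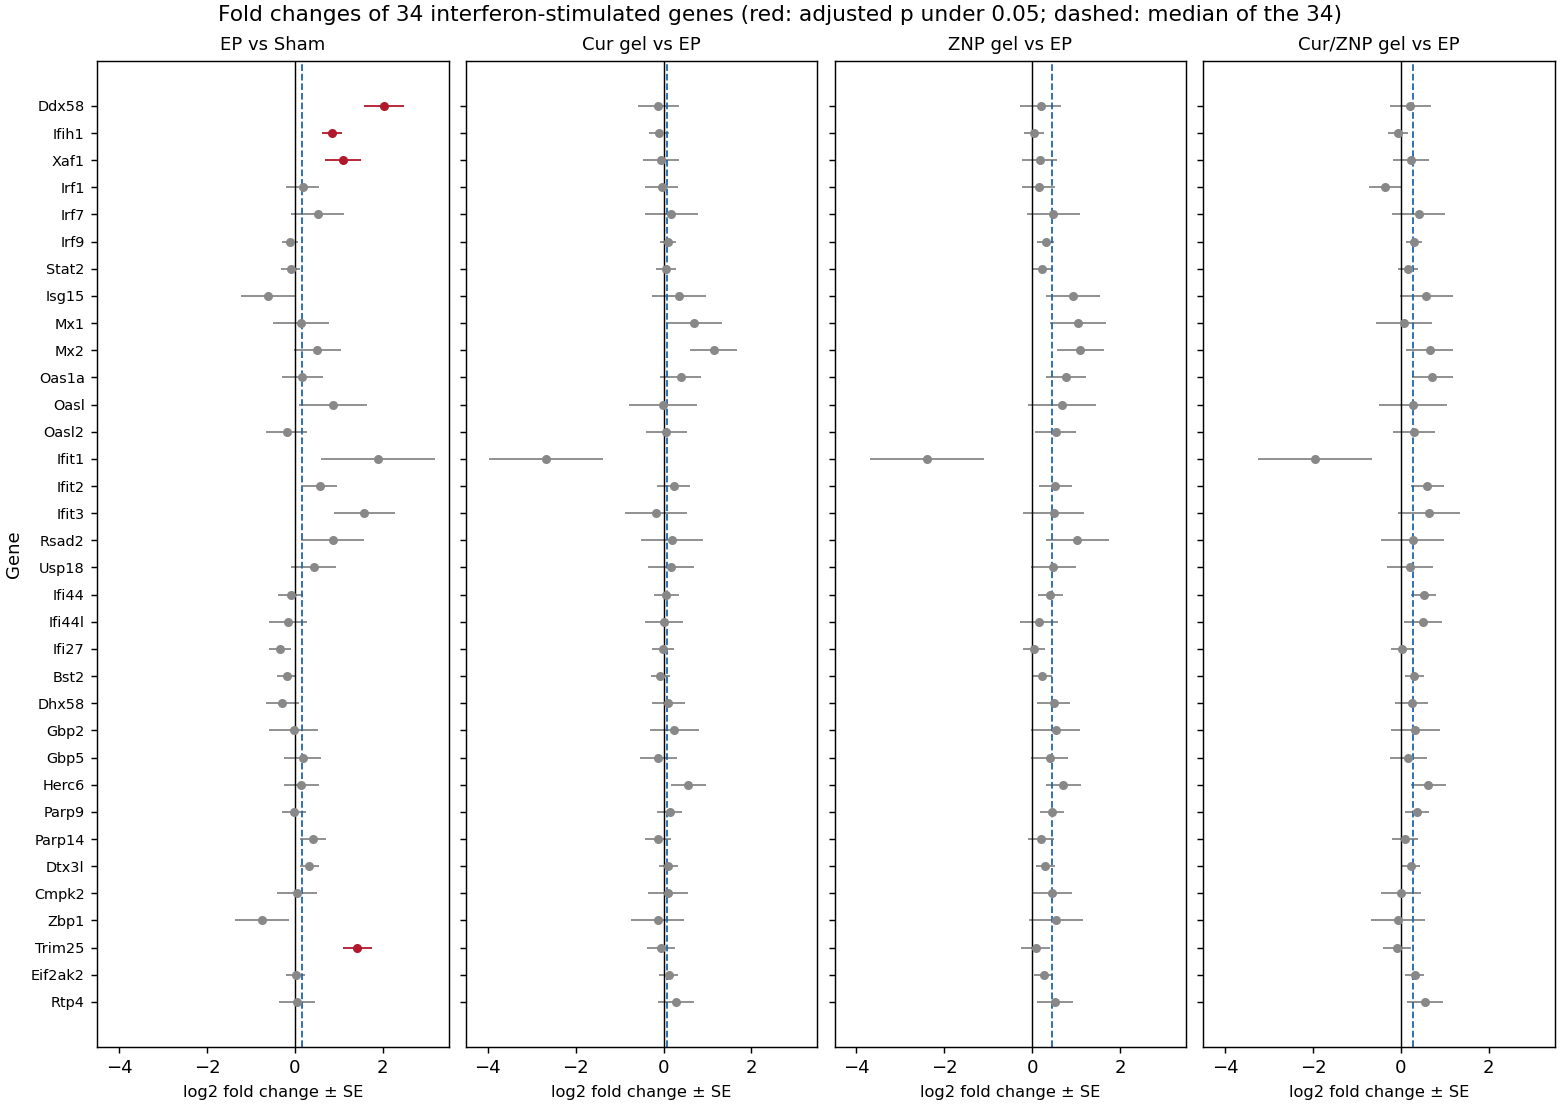
Log2 fold changes with standard errors (horizontal axes) of the 34 genes (vertical axis) in EP against Sham and in each gel group against EP, where red points passed an adjusted p of 0.05 in limma and the dashed line is the median of the 34 genes. The 4 red points are Ddx58, Ifih1, Xaf1 and Trim25 in EP against Sham, where the median is 0.155. Against EP the median is 0.456 for ZNP gel, 0.275 for Cur/ZNP gel and 0.08 for Cur gel.

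Between the gels limma also called 0 of 34 members in Cur/ZNP gel against ZNP gel, Cur/ZNP gel against Cur gel and ZNP gel against Cur gel (in all 3, 0 at an unadjusted p under 0.05, and 0% of all genes called in each direction). EdgeR and DESeq2 called 0 members too, with 2, 0 and 7 members at an unadjusted p under 0.05 by edgeR and 2, 1 and 8 by DESeq2. Of all genes, edgeR called 0 in each, and DESeq2 called 22 higher and 2 lower, 3 higher and 2 lower, and 1 higher and 11 lower, in the same order of comparisons. Here too the share of all genes at the unadjusted threshold was not counted. The median log2 fold change of the members was -0.086, with 10 of 34 above 0, in Cur/ZNP gel against ZNP gel. Without ZNP gel 1 it was 0.287, with 30 of 34 above 0. In Cur/ZNP gel against Cur gel the median was 0.218 with 29 members above 0, and it was 0.049 with 20 members above 0 without Cur/ZNP gel 2. In ZNP gel against Cur gel the median was 0.306 with 33 members above 0, and without ZNP gel 1 it was -0.114 with 6 members above 0.

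Of the 65 listed genes of the pathway that are not members, 51 were tested, 10 (the interferon genes) were under the filter and 4 had no match. In EP against Sham 6 of the 51 rose (11.8%) and 3 fell (5.88%), beside 18.8% of all genes in each direction. Pias1, an inhibitor of STAT signaling, had a log2 fold change of 0.87 (SE 0.18, limma adjusted p = 0.00104), the receptor kinase Jak1 had 0.53 (SE 0.14, adjusted p = 0.00485) and Gbp1 had 4.04 (SE 1.11, adjusted p = 0.00739). Pias1 had 1339, 1408, 1507, 1326 and 1143 normalized counts in EP 1 to 5, against 630, 1084, 591, 443 and 1159 in Sham 1 to 5. Sham 1, Sham 3 and Sham 4 were again the low libraries, and Sham 5 lay within the EP range. Gbp1 had 314, 614, 103, 71.7 and 212 in EP 1 to 5, against 30.6, 18.7, 45.9, 0 and 7.86 in Sham 1 to 5. The size of its fold change thus rests on low sham counts and on the added count of 1. Parp12 had 0.96 (SE 0.28, adjusted p = 0.0102), the adaptor Myd88 0.27 (SE 0.09, adjusted p = 0.0191) and Tlr3, the endosomal receptor of double-stranded RNA, 0.58 (SE 0.20, adjusted p = 0.0271). Irf8, a factor of dendritic cells, B cells and macrophages, fell by 1.41 on the log2 scale (SE 0.30, adjusted p = 0.00144), Ifnlr1, the type III interferon receptor, fell by 0.54 (SE 0.19, adjusted p = 0.0285) and Irf3, which induces interferon beta, fell by 0.52 (SE 0.19, adjusted p = 0.0394). Irf8 had 2719, 2303, 3057, 3950 and 4599 normalized counts in EP 1 to 5, against 14388, 4738, 8047, 9167 and 9166 in Sham 1 to 5, with no overlap. It is the same gene that was counted above among the dendritic cell markers. Socs1, an inhibitor of JAK kinases, was not called, with a log2 fold change of -0.38 (SE 0.30, adjusted p = 0.322). Of the 51 genes, 9 rose and 2 fell in ZNP gel against Sham, 7 rose and 3 fell in Cur/ZNP gel against Sham, 6 rose and 4 fell in Cur gel against Sham. The shares of all genes called higher and lower were 16.7% and 15.4%, 20.2% and 19.5%, and 18.9% and 19.1% in these 3 comparisons, and 0 of the 51 were called in the 6 comparisons without Sham.

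The 34 members lie on 12 chromosomes, and 8 pairs of neighbouring members were at most 150000 bases apart in Rnor_6.0. Parp9 and Dtx3l lie 1129 bases apart on chromosome 11 on opposite strands, and Rsad2 and Cmpk2 lie 14086 bases apart on chromosome 6. The other pairs are Ifit2 with Ifit3 and Ifit3 with Ifit1 on chromosome 1, Gbp5 with Gbp2 and Ifi44 with Ifi44l on chromosome 2, Mx1 with Mx2 on chromosome 11 and Oasl with Oasl2 on chromosome 12. Neighbours did not always move alike, since Ifit1 was highest in EP 2 whereas Ifit2 and Ifit3 were highest in ZNP gel 1. Parp9 was called in no comparison, whereas Dtx3l was called against Sham in ZNP gel and Cur/ZNP gel. The ZNP gel call of Dtx3l was lost in 5 of the 10 fits without a single rat, among them the fit without ZNP gel 1. In Cur gel against Sham Dtx3l was not called but had a log2 fold change of 0.43 (SE 0.22, limma adjusted p = 0.118). The difference between the neighbours was not tested.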

How the data were processed

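Stranded total RNA libraries made after ribosomal RNA removal were sequenced. The signal values that the authors deposited for Ensembl transcripts of Rnor_6.0 are read numbers scaled by a size factor. The submitters' processing notes name DESeq2, and the aligner or quantifier is not given in the sources used here. Every column held whole multiples of 1 step (100% of values within 0.01), which gave back whole reads. Blank lines (840) were left out. Transcripts without a symbol (396) were each kept as a gene of their own, and the other transcripts were summed per gene. The 16092 genes that reached a CPM of 2 in 1 library or more were put on a log2 scale after adding 1, and limma 3.58.1 in R 4.3.3 fitted the 5 groups jointly, with robust moderation, a variance trend and no term for replicate number. Fold changes on this scale understate low genes. Adjusted p-values are Benjamini-Hochberg values over all genes tested, with a two-sided threshold of 0.05, and 10 comparisons were made. The whole reads were also analysed with edgeR 4.0.16 (TMM) and with DESeq2 1.42.0, and other filters, pseudocounts of 0.5 and 5, TMM scaling, fits of 2 groups alone, a replicate block and fits without libraries were further alternatives. The procedure was tested on simulated data. Values in every library are given for members called between EP and Sham, for 6 textbook genes (Isg15, Mx1, Irf7, Ifit1, Oas1a, Rsad2) and for the 6 members with the largest share of a group sum in 1 library. Of the pathway list, the genes named are the 8 with the smallest p among those called between EP and Sham, Ifng, Ifnb1 and Socs1, while a further gene of this rule is not reported here. Mx2, Ifit2, Dtx3l, Zbp1, Cxcl10 and the other interferon genes were given by library or reads, and Irf3 by its fold change, after their values were seen. The members, the pathway list and the marker lists were chosen with earlier results of these data known. Promoter sequences are from RefSeq (GRCr8), and no GRCr8 coordinate was set beside one of Rnor_6.0.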

Additional observations from a re-analysis of the deposited data

Results flagged for a closer look

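In each group of 5 rats the gap between the highest or lowest rat and its nearest neighbour was compared with the range of the group on the log2 scale (Dixon's critical value 0.71), and chance alone marks about 1 in 20 groups. Of 170 combinations of a member and a group 20 were past the value, and 16 of the 20 were the single rat ZNP gel 1 as the highest of ZNP gel. Its values there were 1267 normalized counts for Ddx58, 1823 for Ifih1, 2428 for Irf9, 6798 for Stat2, 3583 for Isg15, 8267 for Ifit2, 13115 for Ifit3 and 5518 for Rsad2. They were 2797 for Usp18, 20254 for Gbp2, 4328 for Gbp5, 4324 for Herc6, 6934 for Parp9, 1506 for Zbp1, 4672 for Eif2ak2 and 1557 for Rtp4. Cur/ZNP gel 2 was the high rat of its group for Stat2 with 3656 and for Gbp2 with 6789. EP 5 was the low rat of EP for Ifit2 with 1040, and Cur gel 4 was the low rat of Cur gel for Trim25 with 1151. The depth of ZNP gel 1 (66448482 reads, size factor 1.23) lay within the range of the other libraries, and the cause of its values was not tested.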

How the results depend on the processing

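No call of 0 members between gels, or between a gel and EP, changed under any alternative run. Without Sham 1, Sham 3 and Sham 4 (chosen after the values were seen, 2 sham rats left) limma called 0 members in each of the 4 comparisons with Sham. Of all genes, that fit called 2.34% higher for EP, 0.795% for ZNP gel, 3.36% for Cur/ZNP gel and 2.55% for Cur gel. In ZNP gel against Sham, 9 members became 15 with DESeq2, 1 in a fit of the 2 groups alone and 4 without ZNP gel 1 and Cur/ZNP gel 2 (also chosen later). Of all genes, 16.7% were called higher in the main fit, and 18.0%, 6.71% and 14.1% in these alternatives, in the same order. The cause of these changes was not tested. Leaving out single rats gave 3 to 4 members called higher between EP and Sham. Against Sham it gave 3 to 10 for ZNP gel (3 without ZNP gel 1 or without Sham 1), 5 to 8 for Cur/ZNP gel and 4 to 6 for Cur gel, and elsewhere, or lower, 0 to 0 members. Without ZNP gel 1 and without Sham 1, 14.2% and 12.7% of all genes were called higher in ZNP gel against Sham. Of 27 member fold changes followed through the alternatives 0 reversed, and 11 lost their call in at least 1 fit without a single rat. The 27 included Ifit3 in EP against Sham and Mx2 in Cur gel against EP, which had no call to lose. The others were picked because they passed the threshold, so few reversals could occur. The median of ZNP gel against EP was 0.857 with edgeR and 0.838 with DESeq2 in place of 0.456.

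Equal rat numbers were not treated as pairs in the main fit. The correlation of the deviations of same-numbered libraries was between -0.392 and 0.506, and at most 3 of 5 pairs in a comparison were over 0.1. Such correlations cannot show whether rats of equal number were handled together. With the replicate block 8 members were called higher for ZNP gel against Sham, 6 for Cur/ZNP gel, 4 for Cur gel and 3 for EP. The shares of all genes called higher were 16.7%, 19.8%, 18.8% and 18.7% in the same order. Depth limits the interferon genes, where 0 reads do not exclude expression, and 5 rats per group limit the members that vary most between rats.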
